A study of Mus musculus with 10 samples.

Results

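Runx1 and its core-binding factor family were followed in the hippocampus of Dp5/Dp1 mice, in which the stretches Dp5Yah and Dp1Rhr of mouse chromosome 16 are duplicated, and of control littermates. The family was taken as 7 named genes, the DNA-binding subunits Runx1, Runx2 and Runx3, the shared partner subunit Cbfb, and the corepressors Runx1t1, Cbfa2t2 and Cbfa2t3. Each gene was read from the probe set that carried its symbol and no other and had the highest mean over all arrays. Of the 7 genes, 6 were measured, among 19938 genes in all. Runx2 had no probe set listed under its symbol and was not analysed here. The members were chosen by name around Runx1, which had been selected on its difference between these same groups, so the differences of its members are given as a description, without a test.

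RUNX proteins bind DNA through the Runt domain and do so tightly only as a heterodimer with CBFB, which does not itself bind DNA. RUNX1 is required for the emergence of blood stem cells, RUNX2 for bone formation, and RUNX3 for T cell lineages and for proprioceptive sensory neurons, while RUNX1 also shapes pain-sensing neurons. In the brain, RUNX1 is best known from microglia, the resident macrophages. RUNX1T1 (ETO) and its relatives CBFA2T2 and CBFA2T3 carry no Runt domain. They recruit histone deacetylases, and RUNX1T1 is known from a leukaemic fusion with RUNX1.

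Both hippocampi of each mouse were pooled, and RNA of 5 Dp5/Dp1 and 5 control males aged 16 weeks was read on Affymetrix Mouse Gene 1.0 ST arrays, with 1 array for each mouse. Dp5/Dp1 mice came from a cross of the Dp5Yah and Dp1Rhr lines and carried both duplications, whereas the controls carried neither. The mutant titles give Dp5Yah first and the Dp5/Dp1 model only in brackets, and the condition label of these samples names both duplications. The labels give C57BL/6N as the background of every mouse and the study's methods give C57BL/6J, so the substrain is not settled by these sources. The same controls were used for the mice with either duplication alone, not analysed here. The Dp5Yah segment covers the genes from Cyyr1 to Clic6 and was made by recombination between loxP sites placed in App and in Runx1, so Runx1 holds its distal end. According to the methods, neither App nor Runx1 gained a further complete copy. The coordinates that the methods give for Dp5Yah place its distal end between the annotated start sites of Runx1, just upstream of the downstream start. Their proximal coordinate does not lie in App, however, so the place of the loxP site within Runx1 was not settled here. Which exons the Runx1 probe set reads is not given in the sources used here.

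Runx1 has a pair of annotated start sites in RefSeq, at positions 92826074 (upstream) and 92697329 (downstream) of chromosome 16 on the minus strand of GRCm38.p6, 128.7 kb apart. The gene spans 92601466 to 92826074, between Clic6 on its centromeric side and Setd4 on its telomeric side. Its promoters are shown first because Runx1 carries the largest difference described below and transcripts from either start may feed its array value. Both lines hold the 250 bases before a start site, 5′ to 3′ along the gene, all in lower case because neither held a match to the RUNX motif TGTGGT or TGCGGT on either strand.
Runx1 upstream promoter, chr16:92826075-92826324 (minus strand): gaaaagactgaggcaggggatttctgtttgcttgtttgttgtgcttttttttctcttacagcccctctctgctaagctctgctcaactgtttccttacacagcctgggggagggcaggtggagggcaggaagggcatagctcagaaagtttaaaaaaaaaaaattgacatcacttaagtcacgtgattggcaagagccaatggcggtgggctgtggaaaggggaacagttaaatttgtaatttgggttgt
Runx1 downstream promoter, chr16:92697330-92697579 (minus strand): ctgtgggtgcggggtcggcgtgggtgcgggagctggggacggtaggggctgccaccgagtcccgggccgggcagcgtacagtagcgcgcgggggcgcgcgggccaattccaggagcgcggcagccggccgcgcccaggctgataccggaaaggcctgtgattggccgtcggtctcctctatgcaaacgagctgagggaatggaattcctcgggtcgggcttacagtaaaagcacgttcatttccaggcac

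The DNA-binding subunits share a short sequence beside 1 of their start sites, shown next because it holds the motif that their own proteins bind. It is an unbroken run of 18 bases with 2 copies of ACCACA, the reverse complement of TGTGGT. Each line below gives that run with its flanks, 5′ to 3′ along the gene, with ACCACA in capitals.
Runx1, chr16:92826027-92826052 (minus strand): taaacaACCACAgaACCACAagttgg
Runx2, chr17:44814585-44814610 (minus strand): caaacaACCACAgaACCACAagtgcg
Runx3, chr4:135120505-135120530 (plus strand): ccctcaACCACAgaACCACAaggcca
The run began 26 bases after the upstream start of Runx1, 21 bases after the start of Runx2 and 136 bases before the upstream start of Runx3. It was found in 4 of 32851 RefSeq promoter windows (0.0122%), those of Runx1, Runx2, Runx3 and the predicted gene Gm16225. The run was taken as a sequence common to Runx1, Runx2 and Runx3, so finding it in their windows is no separate result. The windows run from 250 bases before to 50 bases after a start site, in GRCm38.p6. Of the 9 family windows in the table, 4 held at least 1 TGTGGT or TGCGGT on either strand, against 22.4% of all windows. Those 4 were Runx2 with 4 matches, the upstream windows of Runx1 and Runx3 with 2 each and the upstream window of Cbfa2t3 with 1. No match lay in the windows of Cbfb and Cbfa2t2 or in the downstream windows of Runx1, Runx3 and Cbfa2t3. A match describes the letters only, and no binding was measured here.

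Levels are RMA log2 values, so an increase of 1 is a 2-fold increase in signal, and each difference is the Dp5/Dp1 mean minus the control mean. Levels are read within a probe set and not between genes. A gene was called when limma's adjusted p was under 0.05 over all 19938 genes, which was met by 41 genes (0.206%). Of these, 40 were higher in Dp5/Dp1 (0.201%) and 1 was lower (0.00502%). Among the 6 measured members, 1 was called, Runx1. The Dp5/Dp1 and control arrays did not overlap for Runx1 alone among the members. Over all genes, the Dp5/Dp1 arrays were without overlap above the controls for 0.762% and below them for 0.321%. FCROS, the rank method of the study, also counted Runx1 and no other member. These member counts restate what the family was chosen for, and nothing is read from them.

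Runx1, the subunit whose gene borders the duplication, was measured at 6.90, 6.93, 6.91, 7.24 and 7.07 in control mice 1 to 5. In Dp5/Dp1 mice 1 to 5 it was measured at 8.23, 8.32, 8.04, 8.13 and 8.05. Every Dp5/Dp1 mouse lay above every control, with a gap of 0.79 between the highest control (mouse 4) and the lowest Dp5/Dp1 mouse (mouse 3). The means were 7.01 ± 0.15 (SD, n = 5) and 8.15 ± 0.12, a difference of 1.14 ± 0.07 (SE; 95% interval 0.98 to 1.31), or 2.21-fold. This was the largest difference in either direction among the 19938 genes. Control mice 4 and 5 were the highest of the controls. In whole tissue, fewer cells of a type and less RNA per cell cannot be told apart, and this holds for every level below.

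**Figure D1:**
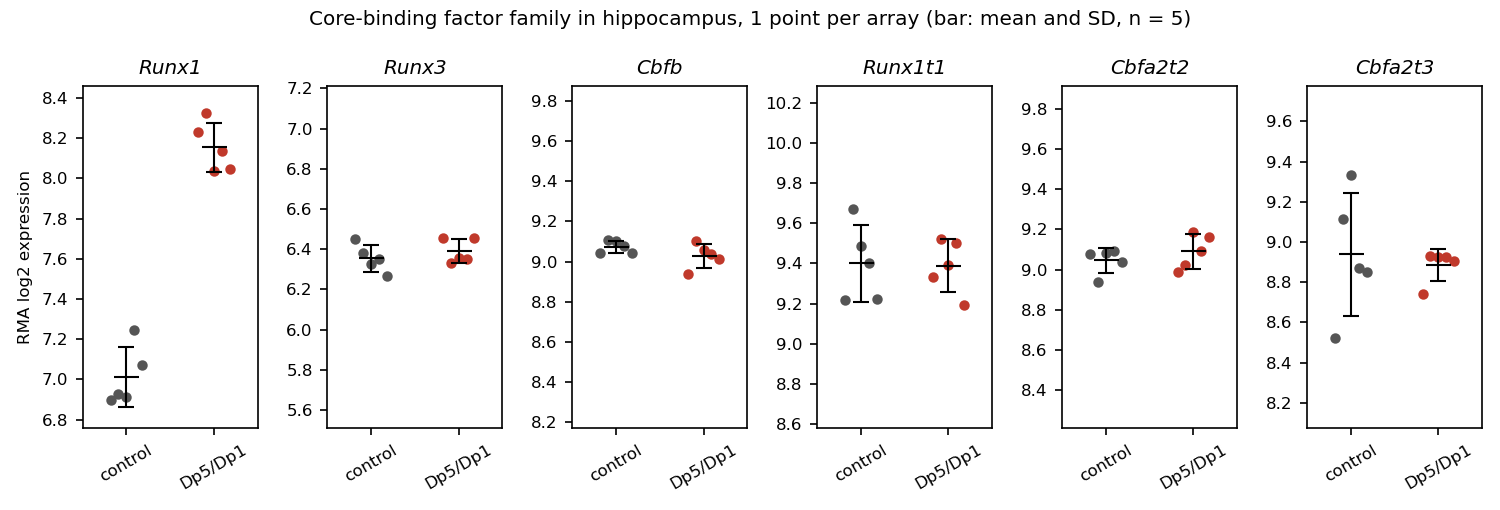
RMA log2 expression of the 6 measured family genes, 1 panel per gene with 1 point per mouse (5 control, 5 Dp5/Dp1), bars giving the mean and SD and every y axis spanning the same width but starting at its own level. The Runx1 groups are separated by 0.79, and the groups of the other genes overlap.

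Runx3, the DNA-binding subunit of T cells and proprioceptive neurons, was measured at 6.45, 6.38, 6.33, 6.35 and 6.27 in controls. The Dp5/Dp1 mice gave 6.46, 6.33, 6.36, 6.35 and 6.46. The groups overlapped, and Dp5/Dp1 mice 1 and 5 matched the highest control. The difference was 0.04 ± 0.04 (95% interval -0.05 to 0.13). This probe set was among the dimmest 40% of genes, where RMA tends to understate a change.

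Cbfb, the partner that every RUNX protein needs to bind DNA tightly, was measured at 9.04, 9.11, 9.10, 9.08 and 9.04 in controls. Its levels in Dp5/Dp1 mice were 8.94, 9.10, 9.06, 9.04 and 9.01. Dp5/Dp1 mouse 1 was the lowest of all 10 and the other 4 lay within or just under the control range. The difference was -0.04 ± 0.03 (95% interval -0.12 to 0.03), so a difference the size of that of Runx1 lay far outside the interval. Cbfb had the narrowest control spread of the members, 0.03 (SD, n = 5).

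The ETO corepressors overlapped between the groups in every case. Runx1t1, the fusion partner of RUNX1 in leukaemia, was measured at 9.22, 9.67, 9.49, 9.40 and 9.22 in controls and at 9.33, 9.52, 9.39, 9.50 and 9.19 in Dp5/Dp1. Its difference was -0.01 ± 0.09 (95% interval -0.21 to 0.18). The controls alone spanned a wider range than the Dp5/Dp1 mice, with control mouse 2 the highest of all 10.

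Cbfa2t2 (MTGR1) was measured at 9.08, 8.94, 9.08, 9.09 and 9.04 in controls and at 8.99, 9.02, 9.19, 9.09 and 9.16 in Dp5/Dp1. Dp5/Dp1 mice 3 and 5 were above all controls and the other 3 were not. The difference was 0.04 ± 0.05 (95% interval -0.06 to 0.14). A second Cbfa2t2 probe set went the other way, 9.07 ± 0.13 in controls and 9.02 ± 0.09 in Dp5/Dp1, a difference of -0.05 ± 0.06. The direction for Cbfa2t2 therefore depended on the probe set.

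Cbfa2t3 (MTG16) was measured at 8.52, 9.11, 9.33, 8.87 and 8.85 in controls and at 8.74, 8.93, 8.92, 8.93 and 8.90 in Dp5/Dp1. The controls were spread on both sides of the Dp5/Dp1 mice, with an SD of 0.31 against 0.08. The difference was -0.05 ± 0.12 (95% interval -0.31 to 0.21), and the second Cbfa2t3 probe set gave -0.06 ± 0.06 with an SD of 0.09 in controls. The wide control spread was thus seen with 1 of its 2 probe sets.

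With the group means removed, the highest r values among the members over the 10 arrays were those between Cbfb, Runx1t1 and Cbfa2t3. For Cbfa2t3 they rest on the probe set with the wide control spread. Its second probe set was not read for r, so this is not taken as shared variation of the genes. Pearson's r was 0.65 for Cbfb and Runx1t1, 0.64 for Runx1t1 and Cbfa2t3 and 0.58 for Cbfb and Cbfa2t3. Runx1 was not close to any other member by this measure, with r from -0.34 (Runx3) to 0.09 (Runx1t1). Runx3 and Cbfb gave -0.51. The points share their arrays and the quantile step of RMA, and these r values are a description of 10 arrays.

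Runx1 was set beside the genes of the duplications by position. Of the 82 genes measured from Cyyr1 to Clic6, 25 were called higher and none lower, and their differences ran from -0.18 (Clic6, whose sign was not fixed) to 0.66 (Ifnar2, an interferon receptor gene) with a median of 0.05. The Runx1 difference exceeded this median by 1.09, and by 0.74 when the dimmest 40% of genes were left out. Runx1 had the largest difference of all genes, so no gene of either interval could exceed it. In the Dp1Rhr interval, read from Cbr1 to Fam3b, 12 of 31 genes were called higher and none lower, with a median of 0.17 and a highest value of 0.49 (Cbr3, a carbonyl reductase).

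The genes nearest to Runx1 were read in the same way. On the centromeric side, Clic6, a chloride channel protein abundant in choroid plexus, lay 60.2 kb from Runx1 and differed by -0.18 ± 0.68, with an SD of 1.38 in controls and 1.22 in Dp5/Dp1. The sign of Clic6 was not fixed, since it ranged from -0.59 (without control mouse 2) to 0.36 (choroid plexus markers as covariate) and turned in 6 of 20 alternatives, among them 0.14 without control mouse 1. The predicted gene 2410124H12Rik, 104.1 kb away, differed by 0.03 ± 0.04. Rcan1, a regulator of calcineurin 135.3 kb from Runx1, was higher in all Dp5/Dp1 mice, 9.66 ± 0.02 against 9.20 ± 0.07, and rose by 0.46 ± 0.04. Next to it, the potassium channel subunit gene Kcne1 differed by 0.02 ± 0.03.

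On the telomeric side, Setd4, a methyltransferase gene 757.4 kb from Runx1 and outside both intervals, differed by 0.0013 ± 0.03. Within Dp1Rhr, the carbonyl reductase gene Cbr1 differed by 0.07 ± 0.04 and was not called. Cbr3 rose by 0.49 ± 0.06 and Dop1b, a gene of endosomal traffic, by 0.36 ± 0.04. Called and uncalled genes thus lay side by side on both flanks of Runx1. Of the uncalled ones, Kcne1, 2410124H12Rik and Setd4 were among the dimmest 40% of genes, where RMA tends to understate a change. The uncalled Clic6 and Cbr1 were not. For the dim genes, a small difference is therefore not read as an absence of change.

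At the other end of Dp5Yah, App, the amyloid precursor gene that also holds a loxP site, was measured at 12.85 ± 0.02 in controls and 12.83 ± 0.02 in Dp5/Dp1. Its difference was -0.02 ± 0.03, and the groups overlapped. The border genes App and Runx1, which share the way the segment was made, therefore differed by very unequal amounts. Cyyr1, the first gene inside, differed by 0.42 ± 0.11 and was not called, with an SD of 0.27 in controls against 0.07 in Dp5/Dp1.

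**Figure D2:**
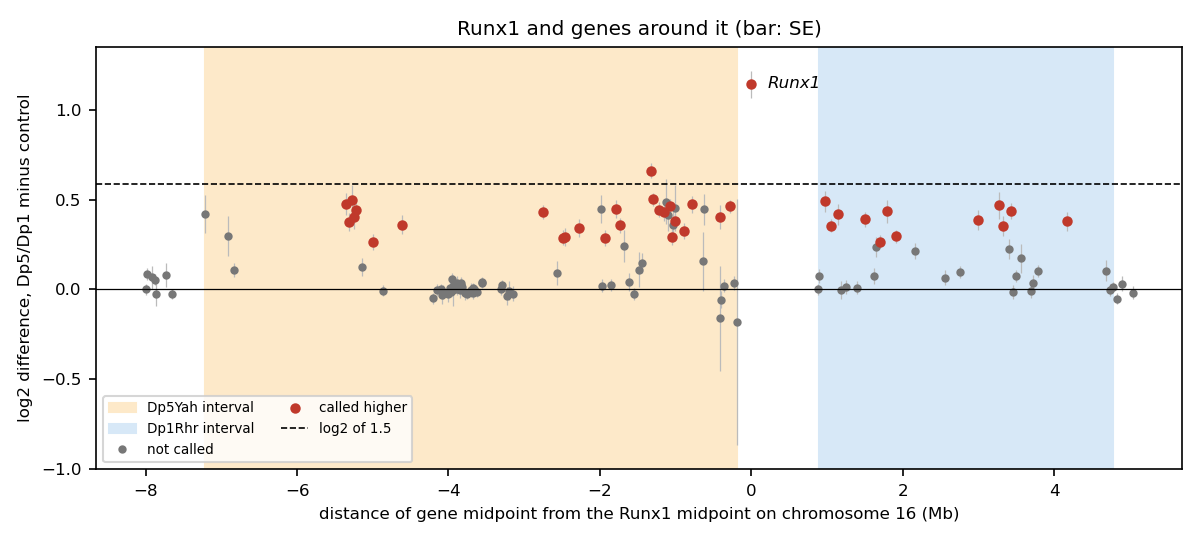
Log2 difference (Dp5/Dp1 minus control, with SE as bar) of Runx1 and measured genes on chromosome 16 against the distance of each gene's midpoint from that of Runx1 in Mb, red where called higher and grey otherwise, with the Dp5Yah and Dp1Rhr gene intervals shaded and a dashed line at a 1.5-fold increase. Runx1 stands at 1.14 in the unshaded gap between the intervals, and the next highest gene shown is Ifnar2 at 0.66.

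Genes with a pattern most like that of Runx1 were found by Pearson's r over the 10 arrays, which mostly reads the group difference. The 6 highest were Ifnar2 (0.960), the purine synthesis gene Gart (0.957), Rcan1 (0.956), the agouti gene a (0.955), the Rac exchange factor gene Tiam1 (0.955) and the interleukin 10 receptor gene Il10rb (0.952). All of these but a lie in the Dp5Yah interval. The gene a, whose product switches the pigment made in hair follicles, lies on chromosome 2 from 154950599 to 155051012, and was measured at 6.99 ± 0.12 in controls and 7.62 ± 0.08 in Dp5/Dp1, a difference of 0.63 ± 0.06. With the group means removed, r fell to between -0.16 and 0.24 for these 6. The 4 genes then most like Runx1 were Tank (0.896), Ddias (0.895), Slc16a13 (0.888) and Dnajc8 (0.888), and their differences between groups ranged from 0.03 to 0.09.

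RUNX proteins act with cofactors, with partner transcription factors and on target genes, and 5 lists of such genes were read for the same contrast. None of their 108 distinct measured genes was called by limma in either direction, against 0.206% of all genes. Of the 41 called genes, 25 lay in the Dp5Yah and 12 in the Dp1Rhr interval. Nothing is therefore read from the absence of calls in these lists. Of the 108 genes, 4 had an unadjusted p under 0.05 in the higher and 5 in the lower direction. Over all genes, 6.06% had an unadjusted p under 0.05. FCROS placed 1 of the 108 in its upper tail and 3 in its lower tail, and called 5.06% of all genes in either direction. The median difference over all 19938 genes was 0.0019, and 51.5% of genes had a higher mean in Dp5/Dp1.

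Among RUNX cofactors and modifying enzymes, 28 of 32 genes were measured, of which 10 had a higher and 18 a lower mean in Dp5/Dp1, with a median of -0.02. The 3 with the lowest unadjusted p were all lower. Crebbp, a histone acetyltransferase, had means of 11.30 ± 0.05 (controls) and 11.19 ± 0.07 (Dp5/Dp1), a difference of -0.11 ± 0.04. Tle3, a Groucho corepressor that binds the end of RUNX proteins, differed by -0.12 ± 0.05, and Smad3, the TGF-beta effector that joins RUNX proteins on DNA, by -0.10 ± 0.04. Limma's adjusted p was 0.776 for Crebbp, 0.812 for Tle3 and 0.806 for Smad3. FCROS counted Crebbp and Tle3 as lower.

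Of the partner transcription factors, all 25 were measured, with 13 higher and 12 lower means and a median of 0.0013. Erg, an ETS factor of endothelial and blood stem cells, differed by 0.10 ± 0.03 and is itself a gene of the Dp1Rhr interval. Gata2, a factor of blood stem cells, differed by -0.09 ± 0.04 and Cebpb, a factor of myeloid cells, by 0.09 ± 0.05 (0.06 without Dp5/Dp1 mouse 3). For all 3 the Dp5/Dp1 and control values overlapped, and limma called none of the 25.

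Blood cell targets of RUNX proteins had 28 of 30 genes measured, with 19 higher and 9 lower means and a median of 0.02. Of these 28, 21 lay in the dimmest 40% of genes, where RMA tends to understate a change. Csf1r, the growth factor receptor of microglia and a known RUNX1 target, differed by -0.03 ± 0.05 around 9.88 ± 0.08 in controls. The 3 with the lowest unadjusted p were the cytokine gene Csf2 (0.09 ± 0.03), the T cell factor gene Zbtb7b (-0.07 ± 0.03) and the integrin gene Itgal (0.09 ± 0.05). Without Dp5/Dp1 mice 2 and 5, Zbtb7b differed by -0.04 and Itgal by 0.05, and without mouse 2 alone Itgal differed by 0.06. Csf1r was named in addition to the rule, after its value was seen.

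Bone and cartilage targets of RUNX2 had 16 of 20 genes measured, with 8 higher and 8 lower means and a median of -0.00082. Sp7 (osterix), the bone factor gene that acts downstream of RUNX2, was measured at 6.04, 6.10, 6.10, 5.98 and 6.09 in controls and at 6.64, 6.28, 6.25, 6.30 and 6.38 in Dp5/Dp1. Every Dp5/Dp1 mouse lay above every control, with mouse 1 the highest. The difference was 0.31 ± 0.07, 1.24-fold on this scale, and limma's adjusted p was 0.208. It ranged from 0.0491 to 0.521 over the alternatives, and limma called Sp7 only without Dp5/Dp1 mouse 1 (0.24, adjusted p = 0.0491). FCROS counted Sp7 as higher on all arrays.

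Sp7 lies on chromosome 15 from 102356603 to 102367035, outside both duplications. Also without overlap between groups were Dmp1, a matrix protein of osteocytes, at 0.10 ± 0.03, and Ibsp, bone sialoprotein, at 0.06 ± 0.03. Non-overlapping groups were found for 3 of 16 bone genes and for 1.08% of all genes in either direction. These 3 were among the 7 of the 16 in the dimmest 40% of genes, where RMA tends to understate a change. All 3 had the Dp5/Dp1 mice above the controls, and limma called none of them.

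The sensory neuron genes under RUNX1 or RUNX3 had 15 of 18 measured, with 10 higher and 5 lower means and a median of 0.02, and 11 of the 15 lay in the dimmest 40%. Ret, the receptor of GDNF family ligands whose pattern in pain neurons depends on RUNX1, had means of 7.47 ± 0.11 (controls) and 7.31 ± 0.12 (Dp5/Dp1), a difference of -0.16 ± 0.07, and FCROS counted it as lower. Oprm1, the mu opioid receptor gene, differed by 0.10 ± 0.05. Pou4f1 (BRN3A) differed by 0.16 ± 0.08 and is also on the list of medial habenula markers described next. With the choroid plexus and habenula means as covariates these differences were 0.02 for Oprm1 and 0.05 for Pou4f1, and without Dp5/Dp1 mice 2 and 5 they were 0.05 and 0.02. Without Dp5/Dp1 mouse 2 alone, Pou4f1 differed by 0.10.

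**Figure D3:**
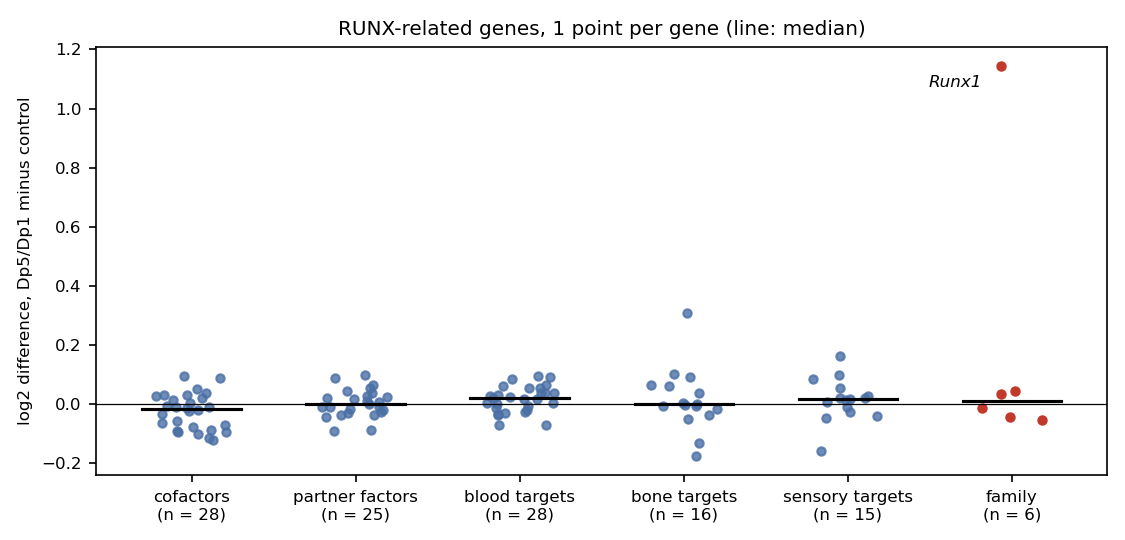
Log2 difference (Dp5/Dp1 minus control) of each measured gene in the 5 RUNX-related lists and in the family, 1 point per gene and a line at each median. The list medians lie between -0.02 and 0.02, Sp7 at 0.31 is the highest list gene, and Runx1 at 1.14 stands alone.

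Markers of the cells that could carry Runx1 RNA were read on the same arrays. Of the neuron markers of the hippocampus, 16 of 17 measured were above the median level of all genes. That is a coarse comparison between probe sets, and without another brain tissue beside it, it does not verify the hippocampal label. Their list mean per array ran from 10.32 to 10.38 in controls and from 10.29 to 10.40 in Dp5/Dp1. The microglial mean, over 19 of 20 markers, ran from 8.60 to 8.72 in controls and from 8.53 to 8.73 in Dp5/Dp1, with a median difference of -0.01. None of the 19 had an unadjusted p under 0.05, and limma called none. With the group means removed, the microglial mean and Runx1 gave r = 0.06 over the 10 arrays. The part of microglia in the Runx1 difference was not tested.

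Blood cell markers, 14 of 20 measured, ran from 6.05 to 6.15 in controls and from 6.08 to 6.19 in Dp5/Dp1 as a list mean. Endothelial markers, 13 of 14 measured, ran from 8.33 to 8.47 and from 8.39 to 8.48. Of the 13, 8 had a higher and 5 a lower mean in Dp5/Dp1, and limma called none. Those with a lower mean were Pecam1 (-0.07 ± 0.05), Flt1 (-0.08 ± 0.05), Emcn (-0.07 ± 0.06), Cdh5 (-0.02 ± 0.05) and Sox17 (-0.03 ± 0.06). An unadjusted p under 0.05 was found for 4, all with a higher mean. These were Cldn5 and Tek, given below, Kdr (0.23 ± 0.07) and Abcb1a (0.12 ± 0.05). FCROS counted 5 as higher. Over all genes, 6.06% had an unadjusted p under 0.05 and FCROS counted 5.06%, each in either direction. Among the 13, the 2 with the lowest unadjusted p were the tight junction gene Cldn5 (0.25 ± 0.07) and the angiopoietin receptor gene Tek (0.22 ± 0.06). Endothelial markers other than these 2 were named after their values were seen. The part of these endothelial values in the Runx1 difference was not tested. The r of their mean with Runx1 was -0.36 within groups. Oligodendrocyte lineage markers, 11 of 12 measured, ran from 9.96 to 10.13 and from 9.90 to 10.04. Of the 11, 5 had a higher and 6 a lower mean in Dp5/Dp1, with none called and 4 counted as lower by FCROS. The oligodendrocyte list mean had the highest within-group r with Runx1 of the cell type lists, 0.56 over 10 arrays.

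Tissues next to the hippocampus varied more from array to array. Choroid plexus markers ran from 6.78 to 8.86 in controls and from 6.89 to 8.46 in Dp5/Dp1, and all 13 measured had a lower mean in Dp5/Dp1. Medial habenula markers ran from 6.47 to 6.95 and from 6.52 to 7.77, and all 9 had a higher mean in Dp5/Dp1, with Dp5/Dp1 mice 2 and 5 the highest. Of the thalamus markers, 9 of 10 had a lower mean in Dp5/Dp1, and the list mean was 8.58 ± 0.27 (SD, n = 5) in controls and 8.37 ± 0.18 in Dp5/Dp1. Meningeal and mural markers ran from 7.94 to 8.33 and from 7.99 to 8.25. Of the 14, 4 had a higher and 10 a lower mean in Dp5/Dp1, and Cdh1 (E-cadherin), at 0.18 ± 0.04, was the 1 whose groups did not overlap. Limma called no marker in these 4 lists. FCROS counted 3 habenula markers (Tac2, Chrna3 and Gpr151) and the meningeal and mural list's Cdh1 as higher. It counted the choroid plexus gene Kl and the thalamus gene Synpo2 as lower, and 5.06% of all genes in either direction. Chrna3 was named after its value was seen. The Runx1 difference was 1.13 with the choroid plexus and habenula means as covariates and 1.12 without Dp5/Dp1 mice 2 and 5.

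**Figure D4:**
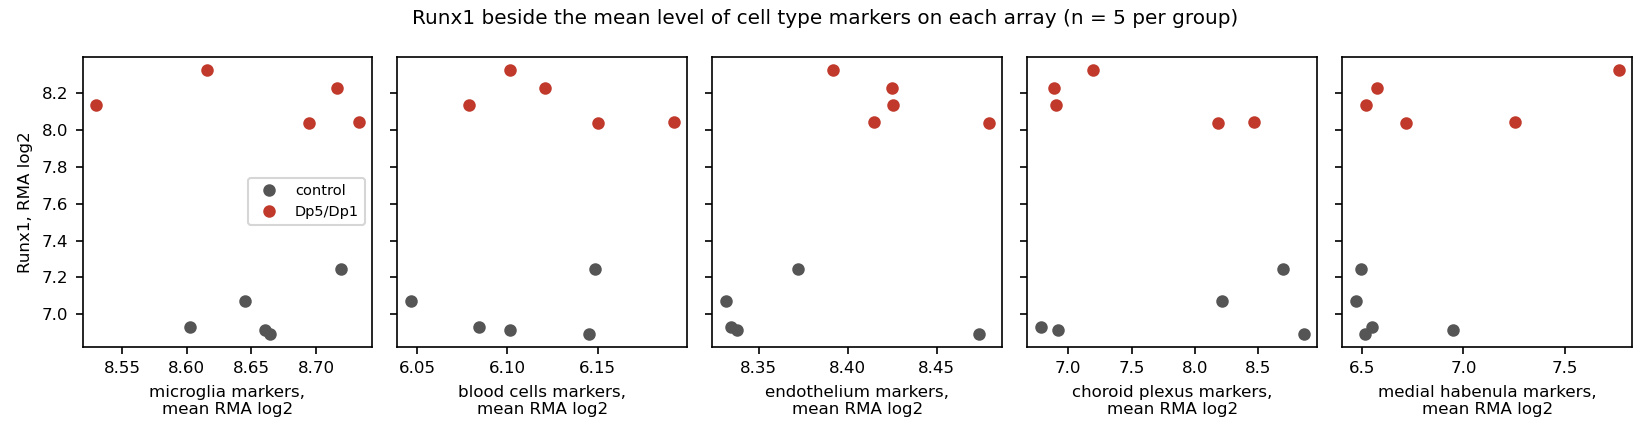
Runx1 level against the mean level of 5 cell type marker lists on each array (both axes RMA log2), 1 point per mouse, 5 control and 5 Dp5/Dp1. The microglial means run from 8.60 to 8.72 in controls and from 8.53 to 8.73 in Dp5/Dp1. The habenula panel shows a pair of Dp5/Dp1 mice far to the right. The part of any cell type in the Runx1 difference was not tested.

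The arrays were alike as a whole. Array medians ran from 6.73 to 6.80, correlations between arrays across genes from 0.996 to 0.999, and no pair of arrays held identical values. The number of arrays limits the precision of every difference given here.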

How the data were processed

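Total RNA of whole hippocampus was measured on Affymetrix Mouse Gene 1.0 ST arrays. The authors normalised the arrays by RMA and deposited log2 expression values, and their processing notes list limma, RMA and mm10 without versions. RMA shrinks differences of dim probe sets. Of 35556 probe sets, 21789 had 1 symbol, 1621 several and 12146 none listed. For 999 genes with more than 1 probe set the brightest was read, leaving 19938 genes, and 21698 probe sets matched RefSeq (GRCm38.p6).

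Groups came from the condition label. Differences were fitted with limma 3.58.1 (lmFit and eBayes, two-sided, no covariate) in R 4.3.3, adjusted by Benjamini-Hochberg over 19938 genes at 0.05. "Called" means past that threshold. FCROS was rewritten from its description (25 array pairs, 0.25 trimmed at each end, tails of 0.025). Scripts were tested on simulated data.

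Members and lists were chosen with earlier results of these data known. Named genes were all members, the borders and the 4 nearest genes on each side of Runx1, up to 4 called or otherwise the 3 of lowest unadjusted p per RUNX list, the 2 of lowest p per marker list (printed where a result touches them), and the genes most like Runx1. No pairing of the mice by replicate number was seen, and pairing was not excluded. The alternatives, with their effect, are given under the processing.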

Additional observations from a re-analysis of the deposited data

Results flagged for a closer look

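In 9 of 120 groups of 5 arrays examined (58 genes and the second probe sets of Cbfa2t2 and Cbfa2t3), 1 array lay far from the other 4 by Dixon's test, which chance gives in about 1 of 20 groups. Among the members this was Cbfa2t3, where Dp5/Dp1 mouse 1 was at 8.74 and the nearest other Dp5/Dp1 mouse at 8.90. The neighbours Kcne1 (Dp5/Dp1 mouse 5 at 5.51, nearest 5.64) and Setd4 (Dp5/Dp1 mouse 3 at 6.54, nearest 6.59) had low arrays. Of the target genes, Itgal had control mouse 2 at 6.06 (nearest 5.96) and Dmp1 had control mouse 4 at 6.03 (nearest 5.99). Of the cell type markers, Dp5/Dp1 mouse 3 was apart for Trem2 at 8.69 (nearest 8.54) and Slc4a1 at 6.98 (nearest 6.91), Dp5/Dp1 mouse 2 for Cldn5 at 9.72 (nearest 9.94) and control mouse 3 for the habenula neuropeptide gene Tac2 at 9.13 (nearest 7.98).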

How the results depend on the processing

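Across 66 results and 1320 comparisons with an alternative, 1310 were held as the same, 9 moved further, 1 was stronger and none was weaker or reversed. Same meant the same direction and side of the threshold, a move smaller than the spread, or a count changed by less than a set factor. Only called genes and the tested list genes could be held as reversed. The sign of an uncalled gene could therefore turn within its spread, as for Setd4 in 10 of 19 alternatives. Runx1 differed by 1.10 (without Dp5/Dp1 replicate 2) to 1.20 (without control replicate 4) when an array was left out and by 1.12 to 1.14 otherwise, and 1 member was called in each of the 22 alternatives. The Runx1 difference over the Dp5Yah median was 0.74 without the dimmest 40% of genes. The signs of Runx1t1 (-0.08 to 0.06, turned in 6 of 20 alternatives), Cbfa2t2 (-0.0032 to 0.07, turned in 1) and Cbfa2t3 (-0.18 to 0.05, turned in 1, without control replicate 3) were not fixed, while Cbfb (-0.07 to -0.02) and Runx3 (0.01 to 0.06) kept theirs.

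The 41 genes called became 1008 with FCROS, which takes tails of 0.025 and uses no adjusted p. That was 5.06% of 19938 genes, so it is not comparable with the limma counts. With limma, 25 were called with the choroid plexus and habenula means as covariates and 21 without Dp5/Dp1 replicates 2 and 5. With an array left out, limma called 29 (without Dp5/Dp1 replicate 3) to 39. The cause of these changes in the limma count was not tested. The replicate block gave 26. Deviations of same-numbered mice correlated between -0.35 and 0.29, above 0.1 for 1 of 5 numbers. Of the 5 controls, 1 correlated best with its own number. No pairing by number was thus seen, but 5 numbers are too few to exclude it. FCROS counted 2 cofactors, 1 bone target and 1 sensory gene where limma called 0, and with an array left out the bone targets called were 0 to 1 (Sp7, without Dp5/Dp1 replicate 1). The number of arrays and dim probe sets limit what could be seen.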
